A study of Mus musculus with 24 samples.

Results

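The genes described here are 10 that set or report the brake on the cell cycle: the inhibitors of cyclin-dependent kinases Cdkn1a, Cdkn1b, Cdkn1c, Cdkn2a and Cdkn2b, the tumour suppressor Trp53 and its antagonist Mdm2, the D-type cyclins Ccnd1 and Ccnd2, and the retinoblastoma gene Rb1. They were taken by gene symbol, and all 10 were found in each of the 3 expression tables, which list 31053 genes for hepatocytes, 25876 for cholangiocytes and 20729 for the Smart-Seq experiment. The libraries were made from livers of wild-type adult male BALB/c mice and from organoids grown from them in Matrigel. Of 24 libraries, 21 were bulk poly(A) libraries in 7 groups of 3, and 3 were Smart-Seq libraries of single morphological subtypes. Primary hepatocytes (Pri-Hep) and their organoids (Hep-Orgs) after 1, 5 and 10 passages (P1, P5, P10) made up the hepatocyte table, and organoids of cholangiocytes (Cho-Orgs) at P0, P5 and P10 the cholangiocyte table. According to the methods, Hep-Orgs came from cells depleted of EpCAM, a surface protein of bile duct cells, and Cho-Orgs from cells selected for it. Hep-Orgs were grown with growth factors, an activator of Wnt signalling and an inhibitor of TGF-beta receptors, to which the Notch inhibitor DAPT and dexamethasone were added in the refined medium used for passaging, and Cho-Orgs with Wnt3a, R-spondin1, Noggin, forskolin, growth factors and an inhibitor of TGF-beta receptors. TGF-beta receptor inhibition was therefore common to both kinds of organoid culture. For Smart-Seq, Hep-Orgs at P0 were picked by shape as grape-like, round-like or intermediate between these, and 1 library was made of each shape. The study describes these shapes in the medium before DAPT and dexamethasone were added.

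D-type cyclins drive the passage from the first gap phase into DNA synthesis by activating kinases that phosphorylate the retinoblastoma protein, which then releases E2F transcription factors. The Cdkn1 family binds many cyclin-kinase complexes, whereas the Cdkn2 family binds the kinases that partner D-type cyclins. p53, the product of Trp53, induces Cdkn1a after stress, and Mdm2, itself a p53 target, marks p53 for degradation. In the liver, hepatocytes and bile duct cells are mostly quiescent but can re-enter the cycle after injury, and Cdkn2a and Cdkn2b are known to accumulate in cells that are cultured for long.

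Cdkn2a and Cdkn2b are neighbours on the minus strand of chromosome 4 in the mm10 build. Cdkn2a (ENSMUSG00000044303) spans 89274471 to 89294653, Cdkn2b (ENSMUSG00000073802) spans 89306289 to 89311032, and 11635 bases lie between them. Cdkn2a has an upstream start, which gives the Arf transcript, and a downstream start, which gives the transcript of the p16 inhibitor. Its levels below add both transcripts, since values were given per gene. The 250 bases before each of these starts are shown from RefSeq (GRCm38.p6, read on the gene's strand, 5′ to 3′) because these were the members with the largest increases in Cho-Orgs, and those before the first start of Cdkn1a because it is the best known target of p53. Capitals mark GC boxes (GGGCGG on either strand) and p53 half-sites.
Cdkn2a upstream start, chr4:89294620-89294869, minus strand: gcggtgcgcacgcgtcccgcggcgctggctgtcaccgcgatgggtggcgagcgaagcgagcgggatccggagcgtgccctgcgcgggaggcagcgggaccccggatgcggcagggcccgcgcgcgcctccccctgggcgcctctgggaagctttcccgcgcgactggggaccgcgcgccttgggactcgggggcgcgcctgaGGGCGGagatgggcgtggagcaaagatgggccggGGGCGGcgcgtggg
Cdkn2a downstream start, chr4:89282193-89282442, minus strand: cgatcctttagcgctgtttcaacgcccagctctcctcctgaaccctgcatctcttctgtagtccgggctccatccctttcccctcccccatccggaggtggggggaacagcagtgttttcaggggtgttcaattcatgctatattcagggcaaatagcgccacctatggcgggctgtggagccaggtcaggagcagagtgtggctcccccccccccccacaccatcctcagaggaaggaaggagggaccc
Cdkn2b, chr4:89311033-89311282, minus strand: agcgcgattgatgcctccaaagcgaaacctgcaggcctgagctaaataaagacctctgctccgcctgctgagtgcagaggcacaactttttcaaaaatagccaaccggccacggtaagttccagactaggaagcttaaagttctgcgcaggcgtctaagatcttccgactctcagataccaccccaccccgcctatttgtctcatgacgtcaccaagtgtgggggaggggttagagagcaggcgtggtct
Cdkn1a first start, chr17:29090729-29090978, plus strand: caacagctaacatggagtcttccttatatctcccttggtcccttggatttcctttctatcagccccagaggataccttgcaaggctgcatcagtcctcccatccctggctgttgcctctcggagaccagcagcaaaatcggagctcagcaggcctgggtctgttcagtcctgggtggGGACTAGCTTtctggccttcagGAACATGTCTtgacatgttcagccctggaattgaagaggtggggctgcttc

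The window of the upstream Cdkn2a start held 2 GC boxes and was 78.4% G and C, the window of the downstream start held none at 60.0%, and that of Cdkn2b held none at 53.6%. Of all 32851 promoter windows of this length, 32.7% held a GC box. The window of the first Cdkn1a start held 2 p53 half-sites, which 7.13% of all windows had at least once, and no GC box. Of E2F sites, only the forms TTTGGCGC and TTTCGCGC were searched, on either strand. They were in 0.654% of all windows and in none of these 4. Other forms, such as the TTTCCCGC in the window of the upstream Cdkn2a start, were not counted. RefSeq windows were given for 6 of the 10 members, and not for Cdkn1c, Ccnd1, Ccnd2 and Rb1. The window of a second Cdkn1a start, chr17:29093519-29093768, is not shown and held 2 GC boxes and no p53 half-site. The windows of Mdm2 and Trp53 held 1 p53 half-site each, and that of Cdkn1b held none.

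The depth on genes was 14068906 to 27160365 fragments in libraries of the hepatocyte table, 37327730 to 39783382 in Cho-Orgs and 39747540 to 40210245 for Smart-Seq. Levels are the FPKM given by the authors, which are fragments divided by gene length and library size, and log2 fold changes are of FPKM + 1. Replicates came from independent cultures according to the methods and from 3 mice according to the figure legends, so p-values may measure the spread between cultures rather than between animals. The 3 libraries of Cho-Orgs at P0 differed more among themselves than those at P5 or P10: the chi-square of fragments over genes was 41.6 to 87.3 per degree of freedom for pairs at P0 and 4.06 to 10.5 for pairs at P5 or at P10. The libraries labelled Pri-Hep did not carry the profile of hepatocytes, with a summed level of 552 to 587 FPKM over 10 hepatocyte markers and 3903 to 3996 FPKM over 9 cholangiocyte markers, and with Cyp2e1 at 0 to 0.0300 FPKM. Of these markers, 6 of 10 and 8 of 9 averaged at least 1 FPKM. Most of the cholangiocyte sum in Pri-Hep was Spp1, with a mean of 3144 FPKM, and Cftr had 0.111. Among the hepatocyte markers Ttr had a mean of 419 FPKM, Alb 112 and Hnf4a 24.2, whereas Apob, Serpina1a, Tat and Cyp2e1 were under 1. The libraries labelled Hep-Orgs P1, P5 and P10 had the same profile, with sums of 565 to 612 FPKM for hepatocyte and 3850 to 4068 FPKM for cholangiocyte markers and with Cyp2e1 at 0. In Cho-Orgs the summed level of the hepatocyte markers was 5055 to 6092 FPKM at P0, 177 to 204 at P5 and 75.4 to 81.0 at P10. The cholangiocyte sum was 5141 to 6553 FPKM at P0, 3548 to 3683 at P5 and 3390 to 3419 at P10. Its markers did not share a direction. Spp1 went from a mean of 3682 FPKM at P0 to 805 at P5. Krt7 had means of 248, 689 and 920 FPKM over the passages and Krt19 1045, 1339 and 1402, whereas Epcam had 451, 490 and 259. A sum over 6 stellate cell markers was 60.8 to 75.5 FPKM at P0, 7.54 to 8.37 at P5 and 0.174 to 0.239 at P10. The stellate sum was almost wholly Reln, with means of 69.2, 7.36 and 0.0816 FPKM, and the other 5 markers averaged under 0.43 FPKM. All 9 cholangiocyte markers averaged at least 1 FPKM at each passage, against 9, 5 and 2 of the 10 hepatocyte markers. A sum over 7 Kupffer cell and macrophage markers was 42.2 to 48.3, 72.1 to 77.3 and 10.1 to 10.5 FPKM, with the Kupffer cell marker Clec4f at 0 in all 9 libraries. Of these 7 markers, 2, 1 and 1 averaged at least 1 FPKM at P0, P5 and P10. Cd68 had means of 30.4, 74.5 and 9.53 FPKM, whereas Lyz2 went from 13.2 at P0 to 0 at both later passages. The differences between Cho-Orgs passages given below lie between groups whose marker levels also differed. The part of these marker levels in them was not tested. In bulk libraries, fewer cells of a type and less RNA per cell cannot be told apart.

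From P0 to P5, 7 of the 10 genes rose in Cho-Orgs and none fell (limma, adjusted p under 0.05). They were read against a background of 56.6% of 11593 genes that passed in either direction and 34% that were higher. From P5 to P10, 3 genes rose (Cdkn2a, Cdkn2b and Trp53) and 5 fell (Cdkn1b, Cdkn1c, Mdm2, Ccnd2 and Rb1), where 61.5% of all genes passed, 31% higher and 30.5% lower. Between P0 and P10 all 10 passed, 8 higher and 2 lower, where 72.3% of all genes passed, 41% higher and 31.3% lower. The shares of genes that were called were thus large in every comparison, and a call by itself was common. The 3 comparisons share libraries in pairs and are given side by side. Past 2-fold as well were 4, 3 and 4 of the 10 genes, against 7.67%, 8.2% and 15.8% of all genes. The groups did not overlap for 7, 9 and 10 of the 10 genes, against 61.5%, 74.2% and 75.1% of all genes. The median log2 fold change over the 10 genes was 0.81, -0.18 and 0.68, and over all genes 0.06, 0.01 and 0.07. With median-ratio size factors in place of the authors' scaling, 47.2% of the genes called between P0 and P5 were higher rather than 60.0%, and the 7 calls stood.

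**Figure D1:**
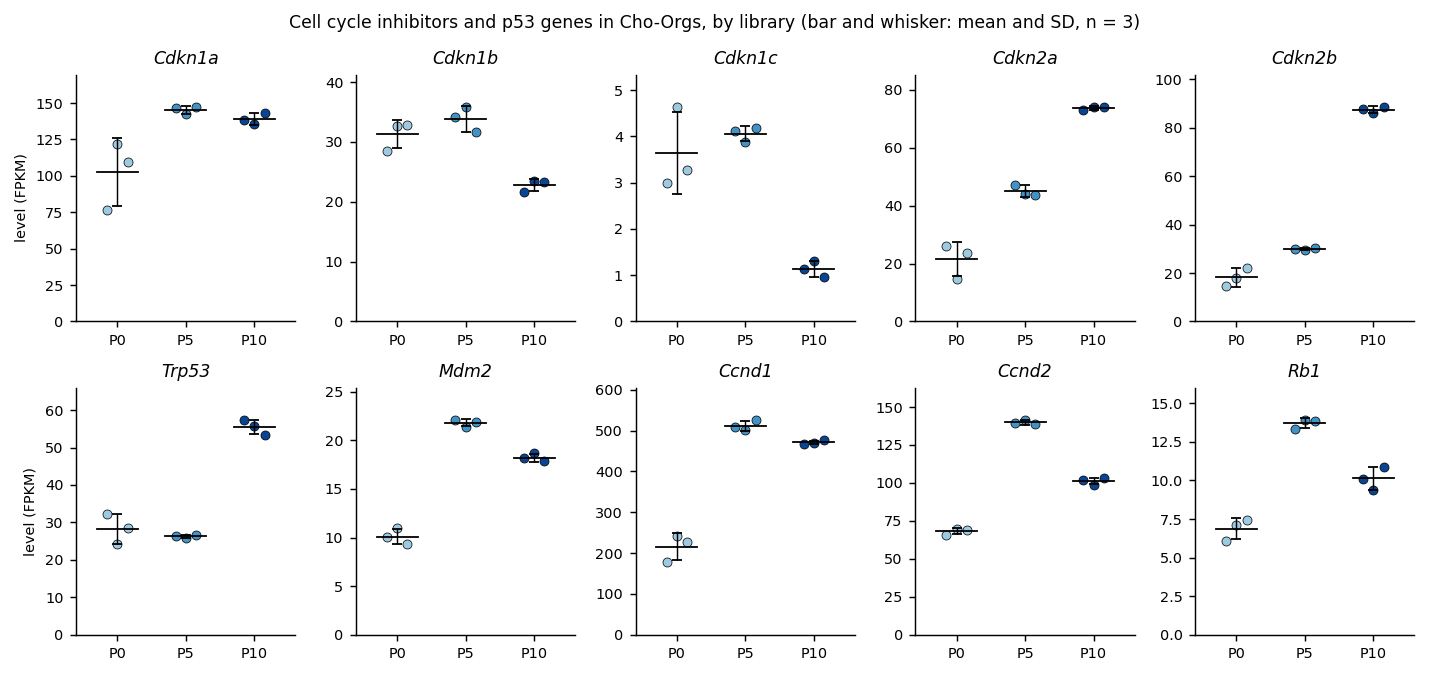
Levels (FPKM, linear axes from 0) of the 10 genes in each of the 9 Cho-Orgs libraries, 3 per passage; horizontal bars are means and whiskers SD. Cdkn2a and Cdkn2b are highest at P10 without overlap, Trp53 overlaps between P0 and P5 and is higher at P10, and the D-type cyclins, Mdm2 and Rb1 have their highest means at P5.

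Cdkn2b, whose product p15 blocks the kinases of D-type cyclins, had the largest fold change of the 10 genes at P10 against P0. Its levels were 14.5, 17.9 and 22.1 FPKM in the 3 libraries at P0, 29.9, 29.5 and 30.3 at P5 and 87.7, 85.9 and 88.7 at P10. Every library was above all libraries of the earlier passage. The log2 fold change was 0.71 (SE 0.12, adjusted p = 0.000578, limma) at P5 against P0, 1.52 (SE 0.12, adjusted p = 4.06e-06) at P10 against P5 and 2.22 (SE 0.12, adjusted p = 1.14e-07) at P10 against P0. The level at P10 was 4.81 times that at P0, and the larger of the 2 steps was the later one.

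Cdkn2a had 26.2, 14.7 and 23.7 FPKM at P0, 47.3, 44.0 and 43.8 at P5 and 72.9, 74.1 and 74.1 at P10. The passages again did not overlap, and the spread was widest at P0, where replicate 2 was low. Its log2 fold change was 1.07 (SE 0.16, adjusted p = 0.000404) at P5 against P0, 0.70 (SE 0.16, adjusted p = 0.00423) at P10 against P5 and 1.77 (SE 0.16, adjusted p = 6.07e-06) at P10 against P0, by limma. Within a library, the ratio of Cdkn2a to Cdkn2b was 0.824 to 1.81 at P0, 1.45 to 1.58 at P5 and 0.832 to 0.863 at P10. Both neighbouring genes thus rose at both steps, and the ratio at P10 lay below that at P5 in every library.

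Cdkn1a encodes p21, the inhibitor that p53 induces, and was the most abundant of the 5 inhibitors per length in every Cho-Orgs library. It had 76.5, 122 and 109 FPKM at P0, 147, 142 and 147 at P5 and 138, 136 and 143 at P10. All libraries at P5 and P10 lay above those at P0, and P5 and P10 overlapped. In log2 terms the fold change was 0.53 (SE 0.14, adjusted p = 0.00812) at P5 against P0, 0.46 (SE 0.14, adjusted p = 0.0114) at P10 against P0 and -0.06 (SE 0.14, adjusted p = 0.702) at P10 against P5 in limma. Replicate 1 at P0 was the lowest, and without it the first and second values were 0.33 (adjusted p = 0.000584, limma) and 0.27 (adjusted p = 0.00129).

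Cdkn1b encodes p27, an inhibitor that is high in resting cells. Its levels were 28.6, 32.7 and 32.8 FPKM at P0, 34.1, 35.9 and 31.6 at P5 and 21.7, 23.4 and 23.4 at P10. The levels at P0 and P5 overlapped, and those at P10 lay below both. The fold change on the log2 scale was 0.11 (SE 0.07, adjusted p = 0.201) at P5 against P0, which did not pass, -0.55 (SE 0.07, adjusted p = 0.000100) at P10 against P5 and -0.44 (SE 0.07, adjusted p = 0.000263) at P10 against P0 by limma.

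Cdkn1c encodes p57, an imprinted inhibitor, and was the lowest of the 10 genes. It had 3.00, 4.64 and 3.28 FPKM at P0, 4.12, 3.88 and 4.17 at P5 and 1.13, 1.32 and 0.970 at P10, from 70 to 357 fragments per library. P0 and P5 overlapped, and P10 was lower than both. The log2 fold change at P10 was -1.24 (SE 0.12, adjusted p = 1.89e-05) against P5 and -1.10 (SE 0.12, adjusted p = 1.98e-05) against P0 by limma. With a pseudocount of 0.1, which compresses low levels less, these were -1.76 and -1.58. At P5 against P0 the value of 0.14 (SE 0.12, adjusted p = 0.341) did not pass. It was 0.29 and passed (adjusted p = 0.0132) once replicate 2 at P0, the highest of its group, was left out.

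**Figure D2:**
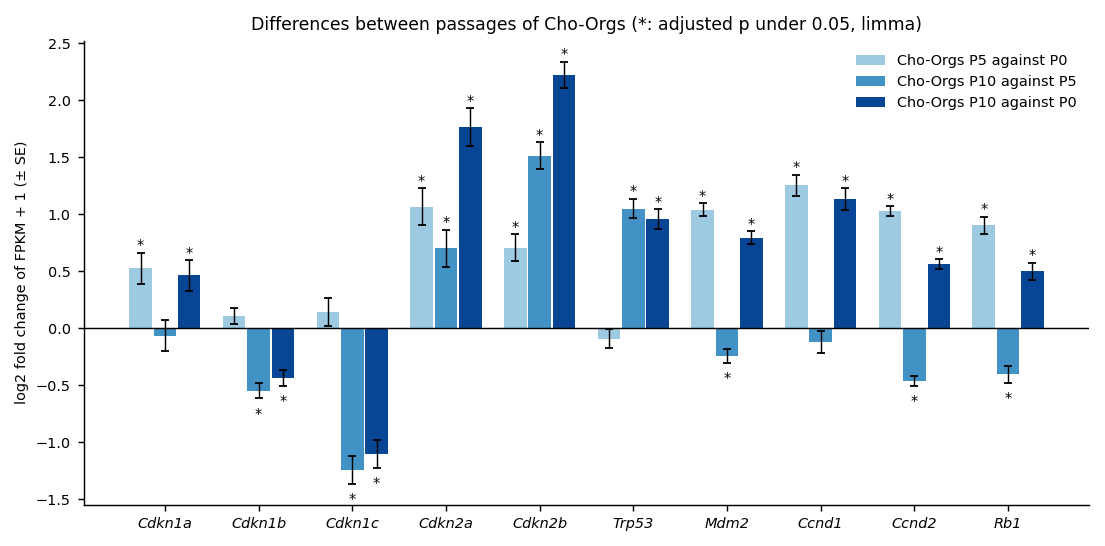
Log2 fold changes of FPKM + 1 (bars, with SE as whiskers) of the 10 genes between passages of Cho-Orgs, each from limma over 9 libraries; stars mark an adjusted p under 0.05. Trp53 has no bar past the threshold at P5 against P0 and one of 1.05 at P10 against P5, whereas Mdm2, Ccnd2 and Rb1 are up in the first comparison and down in the second.

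Trp53 rose from P5 to P10, and Mdm2 from P0 to P5. Trp53 (ENSMUSG00000059552, chromosome 11 from 69580359 to 69591873) had 32.2, 24.1 and 28.4 FPKM at P0, 26.3, 25.96 and 26.6 at P5 and 57.3, 55.8 and 53.5 at P10. The libraries at P5 lay inside the range at P0, and all at P10 were far above both. Its log2 fold change was 1.05 (SE 0.09, adjusted p = 6.77e-06) at P10 against P5 and 0.96 (SE 0.09, adjusted p = 5.16e-06) at P10 against P0 in limma. At P5 against P0 it was -0.09 (SE 0.09, adjusted p = 0.393), did not pass, and depended on single libraries: it was -0.20 with an adjusted p of 0.0192 without replicate 2 at P0 and 0.0054 without replicate 1 at P0.

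Mdm2, the ligase that limits p53 protein, had 10.1, 10.9 and 9.31 FPKM at P0, 22.1, 21.4 and 21.9 at P5 and 18.2, 18.7 and 17.8 at P10. The groups did not overlap in any pair. In log2 terms the fold change was 1.04 (SE 0.06, adjusted p = 6.06e-07) at P5 against P0, -0.25 (SE 0.06, adjusted p = 0.00472) at P10 against P5 and 0.79 (SE 0.06, adjusted p = 1.24e-06) at P10 against P0 by limma. The ratio of Trp53 to Mdm2 within a library, which does not change with the scaling between libraries, was 2.21 to 3.20 at P0, 1.19 to 1.22 at P5 and 2.99 to 3.16 at P10. It was thus low at P5 alone, and P0 and P10 overlapped.

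Ccnd1, the cyclin that couples growth factor signals to the cell cycle, was the most abundant of the 10 genes per length in each Cho-Orgs library. It had 179, 241 and 227 FPKM at P0, 509, 501 and 526 at P5 and 467, 470 and 476 at P10. All libraries at P5 and P10 exceeded those at P0, and P10 lay just below P5. The fold change on the log2 scale was 1.26 (SE 0.09, adjusted p = 3.98e-06) at P5 against P0 and 1.14 (SE 0.09, adjusted p = 2.79e-06) at P10 against P0 in limma. The difference of P10 from P5, -0.12 (SE 0.09, adjusted p = 0.292), did not pass in the fit of all passages. It passed when only the libraries of P5 and P10 were fitted (adjusted p = 0.00772) or without replicate 1 at P0 (adjusted p = 0.0192), both of which leave out libraries with a wide spread.

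Ccnd2 had 65.8, 69.4 and 69.2 FPKM at P0, 139, 141 and 139 at P5 and 102, 98.9 and 103 at P10. The 3 passages were apart from each other. Its log2 fold change was 1.03 (SE 0.04, adjusted p = 8.03e-08) at P5 against P0, -0.46 (SE 0.04, adjusted p = 1.25e-05) at P10 against P5 and 0.56 (SE 0.04, adjusted p = 1.34e-06) at P10 against P0 by limma. The ratio of Ccnd1 to Ccnd2 within a library was 2.71 to 3.48 at P0, 3.54 to 3.79 at P5 and 4.59 to 4.75 at P10. The balance between these cyclins thus moved towards Ccnd1 at each passage without overlap.

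Rb1, whose protein holds E2F factors until cyclin-dependent kinases phosphorylate it, had 6.09, 7.09 and 7.47 FPKM at P0, 13.4, 13.9 and 13.9 at P5 and 10.1, 9.40 and 10.9 at P10. P5 was the highest group and no groups overlapped. The log2 fold change was 0.90 (SE 0.08, adjusted p = 8.21e-06) at P5 against P0, -0.40 (SE 0.08, adjusted p = 0.00114) at P10 against P5 and 0.50 (SE 0.08, adjusted p = 0.000195) at P10 against P0 by limma. Rb1, Mdm2 and Ccnd2 had in common the order P5, P10, P0 from highest to lowest. Ccnd1 had this order too, without overlap, although its difference of P10 from P5 did not pass in the fit of all passages. Cdkn2a and Cdkn2b had the order P10, P5, P0, and Cdkn1b and Cdkn1c were lowest at P10, with P0 and P5 not distinguished.

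The ratio of Cdkn1a to Ccnd1, an inhibitor gene to a cyclin gene, was 0.428 to 0.504 at P0, 0.280 to 0.288 at P5 and 0.289 to 0.301 at P10. It was lower at both later passages than at P0. The ratio of Cdkn1a to Cdkn1b was 2.68 to 3.72, 3.96 to 4.66 and 5.80 to 6.36 in the same order and did not overlap between passages. The ratio of Cdkn1a to Mdm2, the pair of p53 targets, was 7.60 to 11.7 at P0, 6.64 to 6.74 at P5 and 7.28 to 8.03 at P10, so that P0 and P10 overlapped.

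Genes that stand around these 10 in the same pathways were read from 9 lists. Their counts stand beside the shares of all genes. These were 34% higher and 22.6% lower at P5 against P0, and 31% and 30.5% at P10 against P5. At P10 against P0 they were 41% and 31.3%. All 20 of 20 E2F target and proliferation genes were lower at P5 than at P0, 17 of 20 fell further from P5 to P10 and 20 of 20 were lower at P10 than at P0, with a median log2 fold change of -1.19, -1.27 and -2.68. In the order P0, P5 and P10 (mean ± SD, n = 3), the mitotic cyclin Ccnb2 had 41.6 ± 6.24, 23.3 ± 2.69 and 1.07 ± 0.132 FPKM. The mitotic cyclin Ccnb1 had 30.8 ± 7.63, 15.3 ± 0.547 and 1.13 ± 0.424, and the proliferation marker Mki67 had 37.3 ± 7.47, 15.8 ± 0.582 and 1.27 ± 0.0318. Their log2 fold changes at P10 against P0 were -4.36, -3.89 and -4.05, with adjusted p-values of 1.70e-09, 4.72e-08 and 3.28e-09 in limma. Ccnd1 and Ccnd2 thus moved opposite to the proliferation genes between P0 and P10. From P5 to P10, Ccnd2 fell as they did, and the difference of Ccnd1 did not pass.

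Of 28 p53 target genes, 23 rose and none fell from P0 to P5, 10 rose and 10 fell from P5 to P10, and 20 were higher and 3 lower when P10 was set against P0. The median log2 fold change was 0.66, -0.01 and 0.75. In the same order of passages, Gadd45a, a growth arrest gene, had 15.8 ± 3.50, 30.0 ± 0.558 and 107 ± 3.49 FPKM (SD, n = 3). The receptor gene Eda2r had 1.59 ± 0.241, 7.89 ± 0.409 and 11.7 ± 0.156 FPKM, and Zmat3, an RNA-binding p53 target, had 5.76 ± 0.510, 15.1 ± 0.407 and 25.8 ± 0.789 FPKM. These 3 genes rose at both steps, although Trp53 did not pass at the first. The 3 targets that were lower at P10 than at P0, named after their values were seen, were Sesn1, Sfn and the mitotic spindle gene Ckap2.

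All 3 further inhibitors of the cell cycle kinases, Cdkn2c, Cdkn2d and Cdkn3, were lower in each comparison. Cdkn2c (p18), of the same family as Cdkn2a and Cdkn2b, had 7.25 ± 0.576, 3.25 ± 0.251 and 1.63 ± 0.167 FPKM over the passages (SD, n = 3), Cdkn2d (p19) had 10.6 ± 0.728, 8.64 ± 0.158 and 2.21 ± 0.195, and Cdkn3, a phosphatase of cyclin-dependent kinases, had 7.77 ± 1.99, 5.43 ± 0.419 and 0.341 ± 0.0510. The 4 measured genes of the Cdkn2 family thus parted, with Cdkn2a and Cdkn2b higher and Cdkn2c and Cdkn2d lower at P10 than at P0. Its log2 fold change at P10 against P0 was -1.65 (SE 0.08, adjusted p = 6.06e-08, limma) for Cdkn2c and -1.85 (SE 0.07, adjusted p = 1.19e-08) for Cdkn2d.

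Among 10 cyclins and kinases of the first gap and synthesis phases, 2 were higher and 6 lower at P10 than at P0. Ccna2, the synthesis phase cyclin, fell by 4.17 on the log2 scale from 37.6 ± 8.27 to 1.11 ± 0.0567 FPKM, and Ccne1 fell by 1.65 from 9.08 ± 2.02 to 2.16 ± 0.0957 (SD, n = 3). Cdk6, a kinase partner of D-type cyclins, rose by 1.47, from 5.55 ± 0.435 to 17.1 ± 0.417 FPKM (limma, adjusted p = 2.67e-08). Of 11 pocket protein and E2F genes tested, 2 were higher and 5 lower, and the largest changes were in E2f8 at -2.17, Rbl1 at -1.70 and E2f2 at -1.08.

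Of 11 regulators and kinases of p53 that were tested, 4 were higher and 4 lower at P10 than at P0. Mdm4, a relative of Mdm2 that restrains p53, rose from 12.1 ± 0.553 to 25.2 ± 1.10 FPKM (log2 fold change 1.01, SE 0.06, adjusted p = 1.66e-07, limma). The checkpoint kinase genes Chek1 and Chek2 were lower by -1.61 and -1.38 log2. Of 12 senescence-associated genes tested, 6 were higher and 5 lower: Plaur, the urokinase receptor, rose by 2.30, and Igfbp5, a binding protein of insulin-like growth factors, fell by 3.64 on the log2 scale. The members of that list therefore did not share a direction.

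Of 10 regulators of the Cdkn2a locus, 5 were higher and 4 lower at P10 than at P0, and from P5 to P10 5 rose and 2 fell, with 3 rising rather than 5 without replicate 3 at P5, replicate 2 at P10 or replicate 3 at P10. Cbx7, a Polycomb protein known to repress the locus, had 2.48 ± 0.0617, 3.89 ± 0.112 and 8.51 ± 0.370 FPKM over the passages (SD, n = 3). The demethylase gene Kdm6b, which removes a Polycomb mark, had 5.37 ± 0.281, 7.41 ± 0.523 and 11.4 ± 0.284 FPKM, and the Polycomb gene Ring1 had 13.3 ± 1.04, 16.9 ± 0.858 and 22.9 ± 0.607 FPKM. Among the 3 genes named here, known repressors and a known activator of the locus were thus both higher at P10. They were chosen by size of change, and 4 of the 10 regulators were lower. Of all genes, 41% were higher and 31.3% lower. Among 11 kinases, ligases and activators that act on the members, 5 were higher and 4 lower. Myc rose by 2.19 on the log2 scale to 150 ± 1.37 FPKM, and Dtl, a ligase subunit for p21, and Jun fell by 1.92 and 1.30.

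**Figure D3:**
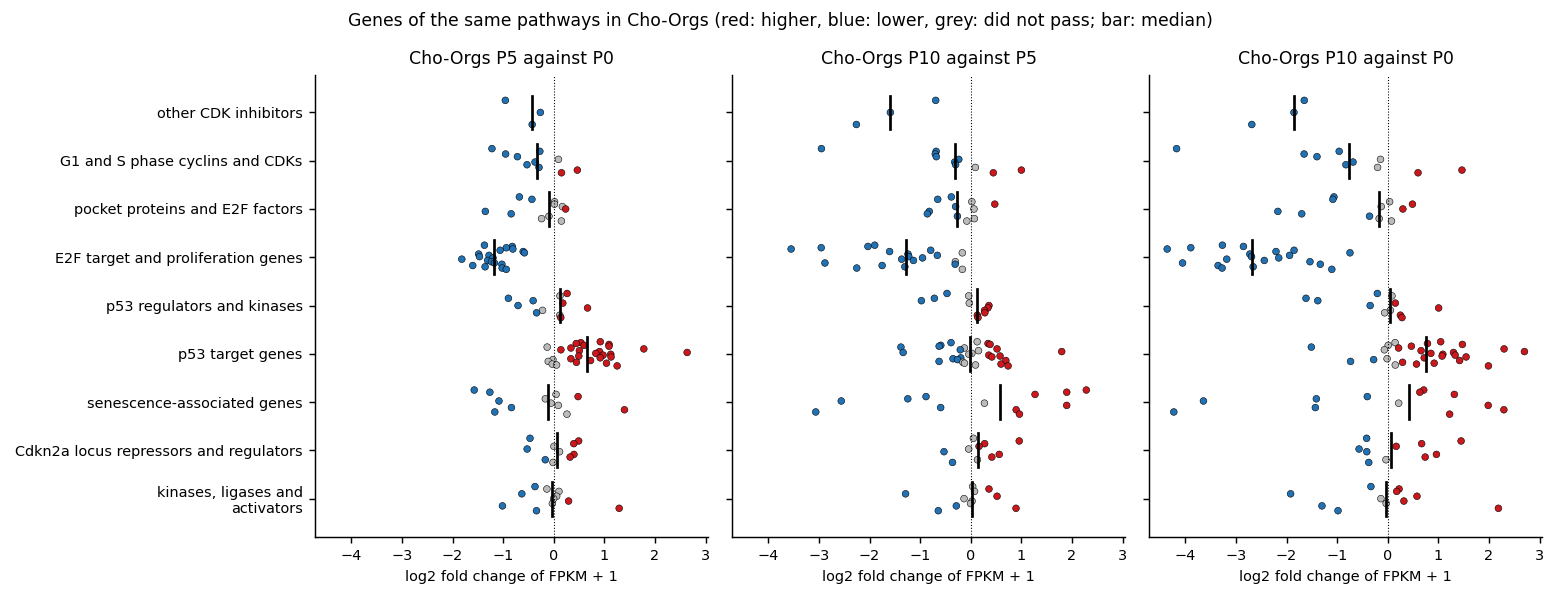
Log2 fold changes of FPKM + 1 in Cho-Orgs for single genes (points) of 9 pathway lists, one panel per comparison; red and blue points passed limma at an adjusted p under 0.05, grey points did not, and black bars are medians. E2F target genes lie left of 0 with a median of -2.68 at P10 against P0, and p53 target genes lie mostly right of it with a median of 0.75.

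The direction of the leading lists did not rest on 1 library at P0. Over all alternatives, 17 to 20 E2F target genes were lower and none higher at P10 than at P0, and 17 to 21 p53 target genes were higher and 2 to 4 lower. With single libraries left out, the counts were 20 for the E2F target genes in each case and 19 to 21 for the p53 target genes.

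Genes whose levels ran most closely with a member over the 9 Cho-Orgs libraries were sought among 2001 genes with an SD of at least 0.5 in log2(FPKM + 1). The libraries fall into 3 passages, so such correlations mostly restate the pattern over passages and are given as a description. Closest to Cdkn2b were Stard5 (Pearson r = 0.998) and Nupr1 (0.996), and closest to Cdkn2a were Camk1d (0.992) and Aspa (0.991). For Trp53 they were Wdr46 (0.993) and Fer1l6 (0.992), for Ccnd1 Tnfrsf10b (0.994) and Trib2 (0.994), and for Cdkn1c Gramd1a (0.997) and Tmem30b (0.994).

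In the hepatocyte table, none of the 9 members that passed the filter on low values was called between any of the groups (limma, adjusted p under 0.05). The filter asked for 1 FPKM in at least 3 libraries, and Cdkn1c with 0.270 to 0.594 FPKM (10 to 23 fragments per library) was below it. Of 10986 genes tested, 0.0091% passed in limma at P1 and at P5 against Pri-Hep, 0.0273% at P10 against P5, and 0% at P10 against Pri-Hep and at P5 and P10 against P1. Limma-voom on the recovered fragments also called no member. At an unadjusted p under 0.05 there was 1 member, Trp53, at P5 against Pri-Hep (10.8% of all genes) and again at P5 against P1 (3.97%). There was none at P1 against Pri-Hep (8.29% of all genes), P10 against Pri-Hep (6.64%), P10 against P1 (8.98%) or P10 against P5 (11.5%). The groups did not overlap for 2 of 9 members at P1 and 2 at P5 against Pri-Hep (13.5% and 15.1% of all genes), 0 at P10 against Pri-Hep (10.9%), 1 at P5 and 2 at P10 against P1 (10.3% and 16.3%) and 2 at P10 against P5 (17.1%). Log2 fold changes of the members ranged from -0.32 to 0.18. The 12 libraries were much alike: the chi-square per degree of freedom was 1.91 to 3.20 within groups and 1.79 to 4.72 between them.

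**Figure D4:**
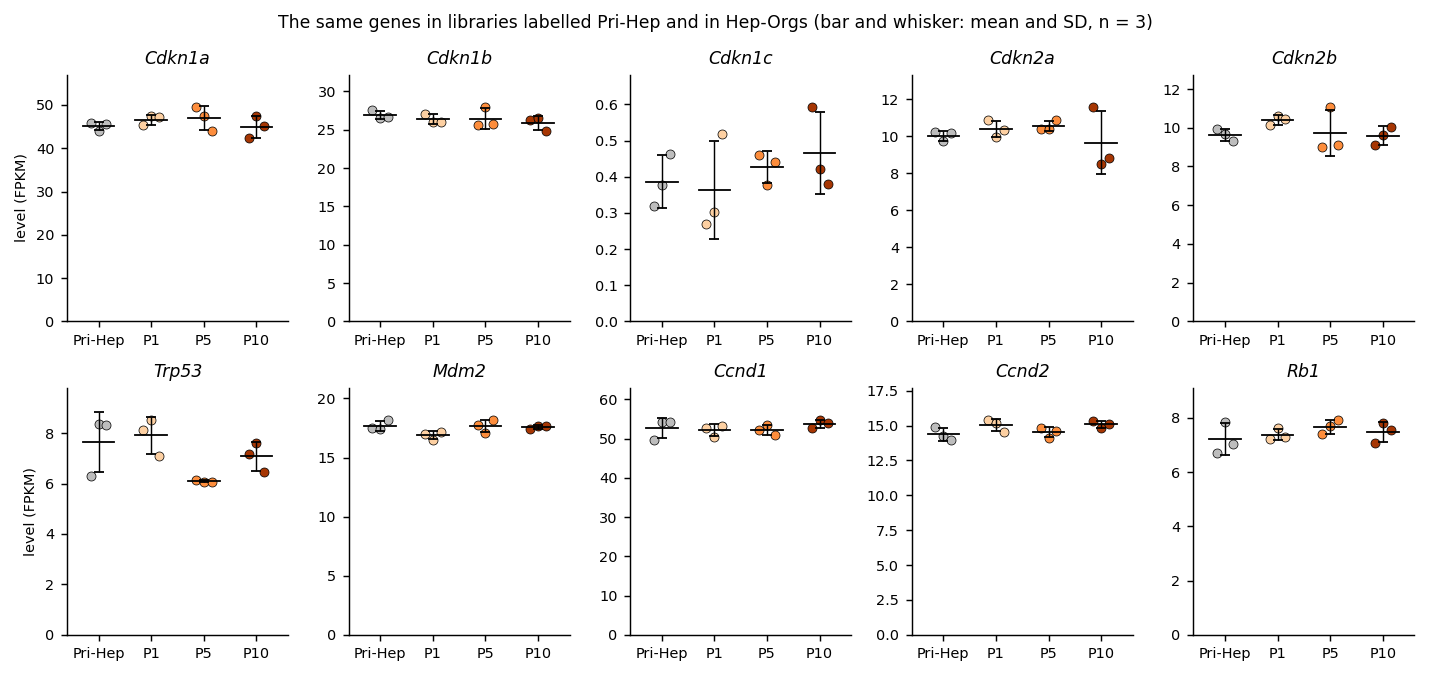
Levels (FPKM, linear axes from 0) of the 10 genes in the 12 libraries of the hepatocyte table, 3 per group; horizontal bars are means and whiskers SD. For 8 genes the highest group mean is at most 1.10 times the lowest, and Trp53 is at 6.07 to 6.15 FPKM at P5 and 6.30 to 8.52 in the other groups.

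Cdkn1a had 45.8, 44.0 and 45.6 FPKM in the libraries labelled Pri-Hep, 45.3, 47.4 and 47.1 at P1, 49.6, 47.4 and 44.0 at P5 and 42.2, 47.4 and 45.2 at P10. All groups overlapped. Ccnd1 lay between 49.7 and 54.8 FPKM over all 12 libraries, Cdkn1b between 24.8 and 28.0, Mdm2 between 16.5 and 18.2, Ccnd2 between 13.97 and 15.4 and Rb1 between 6.72 and 7.92. Cdkn2a lay between 8.53 and 11.6 FPKM and Cdkn2b between 9.01 and 11.1, without an order over the passages. The highest group mean of these 8 genes was 1.03 to 1.10 times the lowest.

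Trp53 was the member that varied most between groups. It had 6.30, 8.35 and 8.34 FPKM in the libraries labelled Pri-Hep, 8.12, 8.52 and 7.09 at P1, 6.15, 6.07 and 6.08 at P5 and 7.16, 7.60 and 6.48 at P10. All 3 libraries at P5 lay below every other library of the table. In log2 terms the fold change was -0.28 (SE 0.09, adjusted p = 0.320, limma) at P5 against Pri-Hep, -0.32 (SE 0.09, adjusted p = 1.00) at P5 against P1 and 0.18 (SE 0.09, adjusted p = 0.465) at P10 against P5. None of these passed, and the lowest adjusted p for Trp53 at P5 under any alternative was 0.0761 against Pri-Hep and 0.156 against P1.

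Between Hep-Orgs and Cho-Orgs the members cannot be compared per length, because the tables used different gene lengths, for example 4045 bases of Trp53 in the hepatocyte table against 2291 in the cholangiocyte table, and were normalized apart. As CPM, which divides fragments by library size alone and so leaves out the length but not the choice of exons, Ccnd1 had 246 ± 5.90 in Hep-Orgs and 1930 ± 47.8 in Cho-Orgs at P5 (SD, n = 3). Cdkn2b, with 1393 bases in both tables, had 13.5 ± 1.64 and 41.7 ± 0.541 at P5 and 13.4 ± 0.659 and 122 ± 1.98 at P10. These values stand side by side without a test.

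In the Smart-Seq libraries, D-type cyclins were lowest in the grape-like and highest in the round-like library. Ccnd1 had 45.9 FPKM in grape-like, 71.0 in intermediate and 129 in round-like organoids, and Ccnd2 had 13.95, 23.4 and 35.1 FPKM. Of the 10 members, these 2 were past 2-fold in FPKM + 1 from the grape-like to the round-like library, where 21.8% of 12595 genes were past 2-fold. Grape-like relative to round-like, the log2 ratio was -1.47 (95% confidence interval -1.51 to -1.44) for Ccnd1 and -1.27 (-1.32 to -1.22) for Ccnd2. With 1 library per subtype there was no test, and the intervals cover the counting error of fragments only.

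Among the inhibitors, with values in the same order, Cdkn2b had 12.8, 20.6 and 8.21 FPKM, and Cdkn2a had 5.94, 9.27 and 5.004. The intermediate library was the highest for both neighbours. Cdkn2b was the only member past 2-fold between the intermediate and round-like libraries, with a log2 ratio of 1.23 (95% confidence interval 1.08 to 1.37), against a background of 6.39% of genes. Between the grape-like and intermediate libraries no member was past 2-fold and 16.9% of genes were.

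Cdkn1a had 60.6, 54.3 and 56.9 FPKM, Cdkn1b had 20.3, 17.4 and 23.4, and Mdm2 had 12.7, 11.03 and 13.3. The order of these levels turned for some pairs with median-ratio size factors: Cdkn1a was then higher in the intermediate than in the round-like library (log2 ratio 0.08) and Mdm2 was level in the grape-like against the round-like library (0.0095). Cdkn1c had 3.11, 1.57 and 1.28 FPKM and Rb1 had 6.30, 4.51 and 4.09, both highest in the grape-like library. With a pseudocount of 0.1 Cdkn1c was past 2-fold in the grape-like against the round-like library, at a log2 ratio of 1.22 rather than 0.85. Trp53 had 39.5, 38.7 and 60.8 FPKM and was highest in the round-like library. The ratio of Cdkn1a to Ccnd1 within a library was 1.32, 0.765 and 0.441 in the same order, and the ratio of Trp53 to Mdm2 was 3.12, 3.50 and 4.57.

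**Figure D5:**
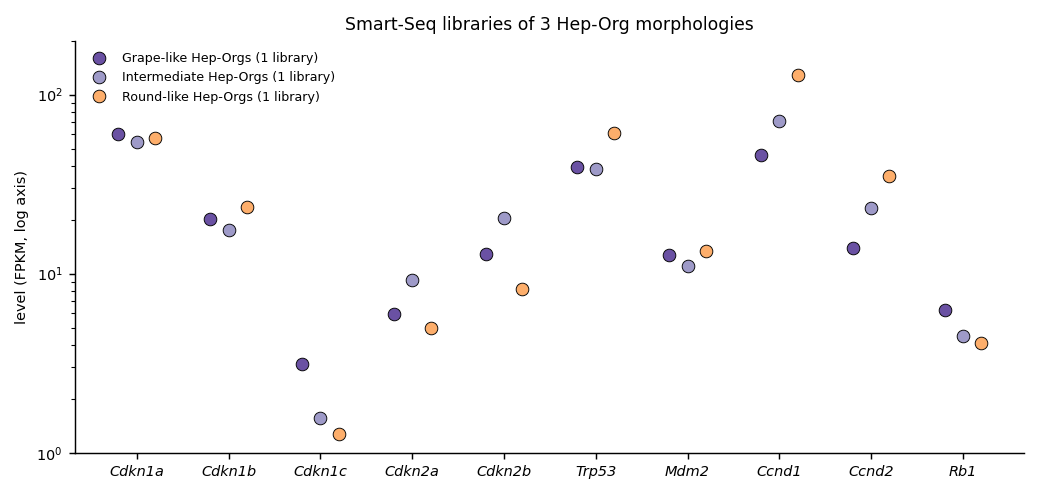
Levels (FPKM, logarithmic axis) of the 10 genes in the Smart-Seq libraries of Hep-Orgs at P0, 1 library per shape, so without error bars. Ccnd1 goes from 45.9 to 129 FPKM and Ccnd2 from 13.95 to 35.1 FPKM between the grape-like and the round-like library, and Cdkn1a stays between 54.3 and 60.6.

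Markers of other liver cells differed between these libraries together with the members. The summed level of 7 Kupffer cell and macrophage markers was 8156 FPKM in the grape-like, 2469 in the intermediate and 1325 in the round-like library, that of 6 stellate cell markers 859, 231 and 162, that of 10 hepatocyte markers 4760, 7238 and 1158 and that of 9 cholangiocyte markers 878, 3461 and 2857. All 7 macrophage markers were above 1 FPKM in each library. Their part in the differences of the members was not tested.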

How the data were processed

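Expression was measured by RNA sequencing in 21 bulk libraries (7 groups of 3) and 3 Smart-Seq libraries, grouped by their labels. The values deposited by the authors are FPKM in 3 tables, each normalized on its own. The submitters' processing notes name featureCounts 2.0.3, edgeR 3.40.2 and the mm10 build, and the aligner is not given in the sources used here. Gene lengths differed between the tables, so levels per length were compared only within a table.

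FPKM were whole multiples of 1 fragment within 0.05 for all genes of the hepatocyte table and for 99.161% to 99.264% of genes of the others, which gave the depth. Libraries held 14068906 to 40210245 fragments on genes. Genes that reached 1 FPKM in 3 or more libraries of a table were tested on log2(FPKM + 1) with limma 3.58.1 in R 4.3.3 (lmFit with 1 mean per group, eBayes with trend, two-sided, Benjamini-Hochberg, threshold 0.05), and the fit was tested on simulated data. Intervals of Smart-Seq ratios are 95% normal approximations and cover counting error only. Tables were read with Python 3.11.15 and pandas 2.3.3.

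The 10 members, the 9 pathway lists and the marker lists were chosen with earlier results of these data known. Of each list, up to 3 genes are named: those with the largest change at P10 against P0 of Cho-Orgs that passed and did not overlap. One gene that this rule would name is not reported here. The nearest genes by correlation are named for members with an SD of at least 0.5. Replicate numbers were not taken as pairs: deviations of same-numbered libraries had a median correlation of -0.0016 over 18 pairs in the hepatocyte table and -0.0063 over 9 pairs in the cholangiocyte table. Alternatives were the pseudocount, the filter, 2 scalings, no trend, a replicate block, fits of only 2 groups, leaving out each library, a 2-fold limit and limma-voom on recovered fragments, the last chosen for Cho-Orgs after seeing the data.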

Additional observations from a re-analysis of the deposited data

Results flagged for a closer look

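Ccnd2 had estimates of opposite sign for P10 against P5 in the 2 kinds of organoid, and the passages did not overlap in either, as was so for 17.1% of all genes in Hep-Orgs and 74.2% in Cho-Orgs. Ccnd2 was flagged by a rule that asks for these traits, so they are no further evidence. In Hep-Orgs its range was 14.1 to 14.8 FPKM at P5 and 14.8 to 15.3 FPKM at P10 (log2 fold change 0.05, adjusted p = 0.566, limma), and in Cho-Orgs 139 to 141 FPKM at P5 and 98.9 to 103 FPKM at P10 (-0.46, adjusted p = 1.25e-05). The change in Cho-Orgs minus that in Hep-Orgs was -0.52. The difference was not tested, since the tables were normalized apart, and the change in Hep-Orgs did not pass on its own.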

How the results depend on the processing

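In Cho-Orgs, the calls of the members that passed were kept under the alternatives that tested them, other than the 2-fold limit. A mean FPKM of at least 5 left Cdkn1c untested, and the 2-fold limit left 4 of 7 members and 889 of 6559 genes at P5 against P0, 3 of 8 and 951 of 7132 at P10 against P5, and 4 of 10 and 1836 of 8384 at P10 against P0. With the replicate block, 6381, 6939 and 8278 genes and 7, 8 and 10 members passed, and limma-voom, chosen after seeing the data, gave 6566, 7134 and 8361 genes. Of the members that did not pass, Trp53 at P5 against P0 ranged from -0.20 to 0.0054 with single libraries left out. With TPM the median log2 fold change of all genes was 0.11 rather than 0.06 at P5 against P0 and 0.10 rather than 0.07 at P10 against P0.

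In the hepatocyte table no member passed under any alternative, and the few calls among all genes depended on the method. The main counts were 1 at P1 and 1 at P5 against Pri-Hep, 3 at P10 against P5 and 0 elsewhere. Limma-voom gave 29, 34 and 27 in these 3 comparisons and 26 at P10 against P1. No trend, the replicate block and fits of only 2 groups gave 0 in each of the 3. Without a filter the counts were 4 at P5 against Pri-Hep, 2 at P10 against Pri-Hep, 1 at P5 against P1 and 0 at P10 against P5. At P5 against Pri-Hep, a mean FPKM of at least 5 gave 7 and TPM gave 2. With single libraries left out, the counts ranged from 0 to 2 at P1 against Pri-Hep, 0 to 3 at P5 against Pri-Hep, 0 to 2 at P10 against P1 and 0 to 6 at P10 against P5. The log2 fold change of Trp53 at P1 against Pri-Hep was 0.05, ranged from -0.072 to 0.12 with single libraries left out, and was -0.0025 without replicate 2 at P1. The cause of these changes was not tested. In the Smart-Seq table, 1414 rather than 805 genes were past 2-fold from intermediate to round-like with a pseudocount of 0.1. Cdkn1c was left out of the main fit of the hepatocyte table by its low level, at 10 to 23 fragments per library. With 1 library per shape, the Smart-Seq ratios had no replicate check.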
